A study of Homo sapiens with 12 samples.

Results

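U87, a cell line from a human glioblastoma, was treated for 72 h with progesterone (P4, 10 nM) or finasteride (F, 100 nM), and the expression with P4 was set against that with F. The comparison used the 3 P4 and the 3 F arrays of a series of 12, which also held 3 arrays with the vehicle dimethyl sulfoxide (V) and 3 with allopregnanolone (3α-THP, 10 nM). Cells were kept in medium without phenol red and with charcoal-stripped serum from 24 h before treatment, and each treatment was repeated in 3 independent experiments, numbered as biological replicates 1 to 3. Every transcript cluster with a gene symbol in the array annotation was tested, which gave 21214 of 33297 clusters on the Affymetrix Human Gene 1.0 ST array. A transcript cluster is the set of probes placed along a gene, and its value is a log2 expression level.

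Progesterone is a steroid hormone. It acts through its nuclear receptor (PGR), a transcription factor, through membrane progesterone receptors of the PAQR family and through receptors of the PGRMC family. The 5α-reductases (SRD5A1 and SRD5A2) convert it to 5α-dihydroprogesterone, from which 3α-hydroxysteroid dehydrogenases of the AKR1C family make 3α-THP. Finasteride, an azasteroid, is an inhibitor of 5α-reductase. Its dose differed from that of progesterone, so every difference below compares the treatments as they were dosed, and dose and compound cannot be told apart. No array held both compounds.

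P4 and F differed little over most genes. The median log2 difference, P4 minus F, was 0.0032, and 67.9% of the clusters lay within 0.1 of 0. In the unpaired fit of limma, which gave each treatment its own mean, 11 clusters (0.0519% of those tested) passed the threshold used in the study, where the fold exceeds 1.5 and the unadjusted p is under 0.05. Of these, 4 (0.0189%) were higher with P4 and 7 (0.033%) were lower. With the replicate number as a block 19 clusters (0.0896%) passed, 4 higher (0.0189%) and 15 lower (0.0707%), and all 11 of the unpaired fit were among them. At an unadjusted p under 0.05 alone, 608 clusters (2.87%) passed in the unpaired fit and 1199 (5.65%) with the block. After Benjamini-Hochberg adjustment over the 21214 clusters, 0 passed in either limma fit, and the smallest adjusted p with the block was 0.601. The genes named below therefore hold at the unadjusted threshold only, and 3 arrays per treatment limit the precision of each value. The 95% interval given for a gene is that of the unpaired fit and excludes 0 where its unadjusted p is under 0.05, while the fit with the block is given by its SE.

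**Figure D1:**
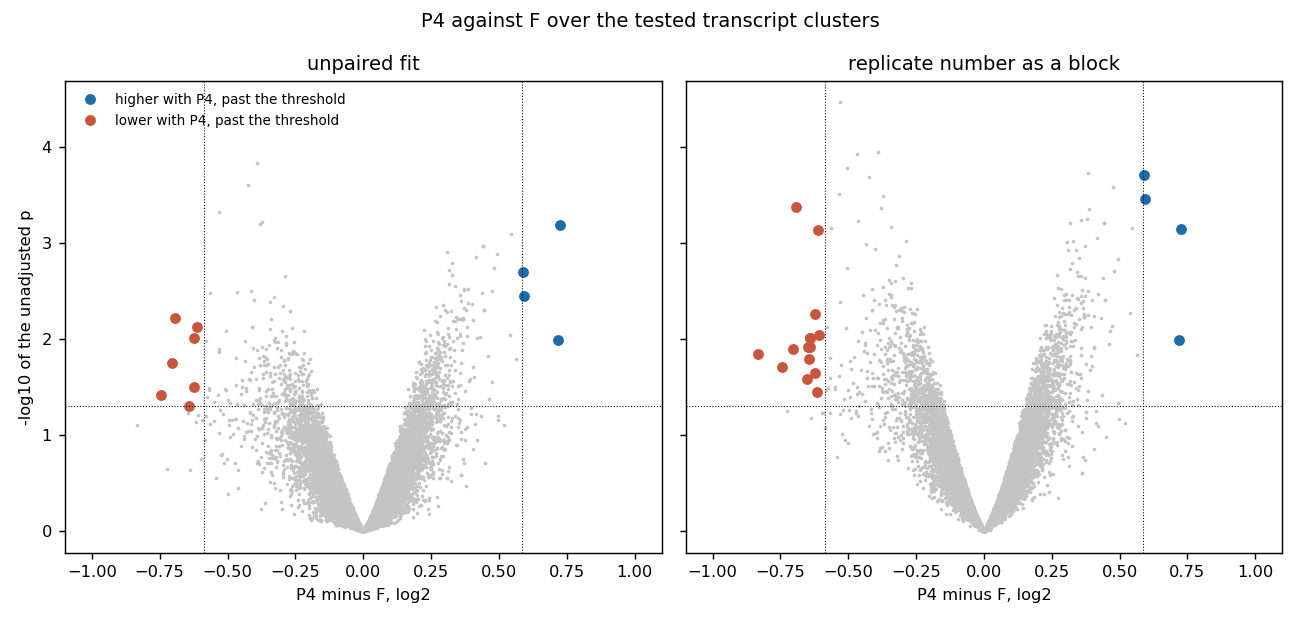
Each point is 1 of the 21214 tested transcript clusters, with P4 minus F on the log2 scale against the negative log10 of limma's unadjusted p, in the unpaired fit (left) and with the replicate number as a block (right). Dotted lines mark a fold of 1.5 and a p of 0.05, and large points are clusters past both, 11 on the left and 19 on the right, of which 4 on each side were higher with P4.

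The arrays of replicate 2 stood apart from the others before any treatment was compared. On the first principal component, which held 37.0% of the variance, the 4 arrays with number 2 lay between 9.18 and 30.1 and the other arrays between -15.4 and -1.21. P4 minus F also differed from one replicate number to the next. In replicate 1, 172 clusters were lower with P4 by more than the log2 of 1.5 and 50 were higher by as much, in replicate 2 these counts were 65 and 80, and in replicate 3 they were 70 and 102. Across clusters, the differences of replicates 1 and 2 correlated at r = 0.027, those of 1 and 3 at -0.007 and those of 2 and 3 at 0.195. These coefficients run over clusters, which are not independent, within pairs of arrays. All 3 differences lay below -0.3 for 25 clusters and above 0.3 for 14, and for 0 clusters did all 3 lie beyond 0.5 on the same side.

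Among clusters with a single gene, 12 were lower with P4 and past the threshold in at least 1 of the fits. They encode Golgi, endosome and centrosome proteins, a kinesin, a DNA repair protein, a chromatin protein and a translation factor. In all 12 both means were above that of the vehicle, and P4 lay closer to it than F. P4 minus V ran from 0.03 to 0.45 and F minus V from 0.72 to 1.09, where both differences share the V arrays. In all 12 the smallest of the 3 replicate differences was that of replicate 2, which is the smallest for 30.6% of all genes measured. Their medians were -1.12, -0.18 and -0.69 in replicates 1, 2 and 3. The same arrays chose these genes, so this is a description of the selected genes. In only 3 of the 12 (KIF20B, LRRCC1 and HMGN5) did all 3 P4 arrays lie below all 3 F arrays, an arrangement seen in 3.32% of tested clusters (8.07% in either direction). The 3 replicate differences were all negative in 10 of the 12, all but AKAP9 and TRIP11, beside 13.4% of tested clusters that were all negative and 13.4% that were all positive.

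GCC2, a golgin that captures vesicles arriving at the trans-Golgi, had log2 values of 7.80, 7.73 and 8.54 with P4 in replicates 1 to 3. With F the values were 8.95, 7.91 and 9.13, and with V 7.35, 7.78 and 7.60. The F arrays of replicates 1 and 3 were high, the F array of replicate 2 was close to the lower P4 arrays, and the groups overlapped. P4 minus F was -0.64 (limma, SE 0.295, 95% interval -1.28 to -0.0027, and SE 0.219 with the block). This call was the least stable of the 11. It was lost without any of 9 of the 12 arrays, and the difference was -0.53 without P4 replicate 1, -0.50 without P4 replicate 2, -0.50 without F replicate 1 and -0.41 without F replicate 3. The other 5 losses, without each V array and without 3α-THP replicates 1 and 2, left the difference at -0.64 and moved only the estimate of the spread. Without F replicate 2 the difference was -1.02.

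GOLGA4, another trans-Golgi golgin, passed with the block only. Its log2 values were 6.93, 7.08 and 7.79 with P4 and 7.90, 7.25 and 8.48 with F. Each F array was above the P4 array of its own number, by 0.17 in replicate 2, while the groups overlapped. The difference was -0.61 (limma, SE 0.296, 95% interval -1.25 to 0.03, and SE 0.196 with the block). It was -0.31 without F replicate 3 and -0.92 without F replicate 2. TRIP11, a golgin of the cis-Golgi, had 7.68, 7.71 and 8.39 with P4 and 8.76, 7.70 and 9.16 with F. In replicate 2 the pair of arrays differed by 0.01, and the mean difference was -0.62 (limma, SE 0.314, 95% interval -1.30 to 0.06, and SE 0.261 with the block). That difference was -0.30 without F replicate 3 and -1.04 without F replicate 2. CCDC186, which works in dense-core vesicle sorting, stayed inside the fold of 1.5 at -0.55 (limma, SE 0.248, 95% interval -1.09 to -0.01). Of 17 golgins and Golgi tethers measured, 15 had a negative difference and the median was -0.14, beside 48.6% negative and a median of 0.003 over all tested clusters. In that list 1 gene passed the threshold in the unpaired fit and 3 with the block, all lower with P4. Over all tested clusters 0.033% and 0.0707% passed in that direction. The list was written with earlier results of these data known, so its counts are not independent evidence.

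EEA1, a tether of early endosomes, had 6.50, 6.95 and 7.55 with P4, 7.90, 7.03 and 8.31 with F and 6.55, 7.07 and 6.39 with V. The lowest F array, of replicate 2, lay among the P4 arrays. P4 minus F was -0.74 (limma, SE 0.322, 95% interval -1.44 to -0.05, and SE 0.277 with the block), a 1.68-fold lower level with P4. The call was lost without P4 replicate 1 (-0.49), P4 replicate 2 (-0.72), F replicate 1 (-0.67) or F replicate 3 (-0.46). The other early endosome genes moved less: the median of the 25 measured was -0.03, and EEA1 alone was past the threshold in either fit. Over all tested clusters 0.033% passed as lower in the unpaired fit and 0.0707% with the block. The retromer sorting nexin SNX1 had narrow groups, 7.33, 7.28 and 7.29 with P4 and 7.45, 7.49 and 7.46 with F, which did not overlap and differed by -0.17 (limma, SE 0.078, 95% interval -0.34 to 0.0017).

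KTN1, a coiled-coil protein of the endoplasmic reticulum that binds kinesin, had 8.47, 8.90 and 9.44 with P4 and 9.70, 9.18 and 9.79 with F. Its groups overlapped through F replicate 2. The difference was -0.62 (limma, SE 0.259, 95% interval -1.18 to -0.06, and SE 0.24 with the block), and it came mostly from replicate 1, at -1.23 against -0.29 and -0.35 in replicates 2 and 3. It was not past the threshold without P4 replicate 1 (-0.39), P4 replicate 2 (-0.61), F replicate 1 (-0.55) or F replicate 3 (-0.51). CCDC88A, the actin-binding protein girdin, had 7.10, 7.22 and 7.94 with P4 and 8.30, 7.36 and 8.55 with F, and passed with the block only, at -0.65 (limma, SE 0.302, 95% interval -1.31 to 0.0041, and SE 0.258 with the block). Without F replicate 3 the difference of CCDC88A was -0.41, and without F replicate 2 it was -1.004. The 12 coiled-coil and shaping proteins of the endoplasmic reticulum, with girdin among them, had a median of -0.04.

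LRRCC1, a centrosomal protein, was lower on every P4 array. Its log2 values were 5.30, 5.59 and 5.88 with P4, 6.37, 5.94 and 6.57 with F and 5.38, 5.80 and 4.91 with V. All P4 arrays lay below all F arrays, though only by a small gap between P4 replicate 3 and F replicate 2. The difference was -0.70 (limma, SE 0.259, 95% interval -1.26 to -0.14, and SE 0.242 with the block), a fold of 1.63. Without P4 replicate 1 it was -0.56 and without F replicate 3 -0.57, neither past the threshold. AKAP9, which anchors protein kinase A at the centrosome and Golgi, had 6.71, 6.60 and 7.24 with P4 and 7.78, 6.59 and 8.10 with F. The arrays of replicate 2 were level with each other, and AKAP9 passed with the block only, at -0.64 (limma, SE 0.31, 95% interval -1.32 to 0.03, and SE 0.231 with the block). Without F replicate 3 it was -0.34 and without F replicate 2 -1.09.

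The centrosome and centriolar satellite list had the lowest median among lists not chosen by the study, -0.15 over 46 genes. In this list 41 were negative, beside 48.6% of all tested clusters. Its medians within replicates were -0.13, -0.09 and -0.11. In the unpaired fit 5 of the 46 had an unadjusted p under 0.05 and a lower level with P4, beside 1.21% of all tested clusters, and with the block 11 did, beside 2.71%. The list shares members, PCM1 among them, with the genes that the study picked on these arrays. NINL, a ninein-like centrosomal protein, had the smallest unadjusted p of the list. Its values were 5.93, 5.79 and 5.79 with P4 and 6.09, 6.11 and 6.12 with F, groups that did not overlap, with a difference of -0.27 (limma, SE 0.0796, 95% interval -0.44 to -0.10). Its fold of 1.2 was below the threshold. Its difference was largest in replicates 2 and 3, at -0.31 and -0.33.

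KIF20B, a kinesin of cytokinesis, had the largest negative difference of all genes but a wide spread. Its log2 values were 4.65, 5.75 and 5.64 with P4, 6.17, 5.83 and 6.55 with F and 4.75, 6.09 and 5.11 with V. The P4 and F arrays did not overlap, while the V array of replicate 2 lay among the F arrays. P4 minus F was -0.83 (limma, SE 0.434, 95% interval -1.77 to 0.11) and passed with the block only (SE 0.293). Without P4 replicate 1 it was -0.48. The kinetochore protein CENPF and the spindle pole protein ASPM had differences of nearly that size, -0.72 (limma, SE 0.565, 95% interval -1.95 to 0.50) and -0.64 (SE 0.507, 95% interval -1.73 to 0.46). Neither passed, and both were high on V replicate 2, CENPF at 8.04 against 6.05 and 6.35 on the other V arrays and ASPM at 7.23 against 5.32 and 5.80. Of 60 genes of the G2 and M phases 47 were negative, beside 48.6% of all tested clusters, and the median was -0.08. In the unpaired fit of limma 0 passed the threshold, and none reached an unadjusted p under 0.05, beside 2.87% of all tested clusters. KIF20B alone passed with the block, where 0.0707% of all tested clusters passed as lower. The 56 S phase genes had a median of 0.00.

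RAD50, a subunit of the MRN complex that senses DNA double-strand breaks, had 7.66, 7.90 and 8.33 with P4, 8.65, 8.26 and 8.86 with F and 7.52, 8.04 and 7.48 with V. Only P4 replicate 3 and F replicate 2 crossed. The difference was -0.62 (limma, SE 0.206, 95% interval -1.07 to -0.18, and SE 0.186 with the block), and it had the same sign in all 3 replicates (-0.99, -0.35 and -0.53). Without P4 replicate 1 it was -0.47 and without F replicate 3 -0.49, both inside the fold of 1.5. NBN, another MRN subunit, had groups that did not overlap and a smaller difference of -0.23 (limma, SE 0.134, 95% interval -0.52 to 0.06, and SE 0.0978 with the block). Of 33 genes of double-strand break repair 25 were negative, beside 48.6% of all tested clusters, and the median was -0.12. RAD50 alone passed the threshold in each fit. Over all tested clusters 0.033% passed as lower in the unpaired fit and 0.0707% with the block.

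RAD50 is also among the 10 genes that the study carried on to RT-qPCR. The study chose these 10 on the same arrays, against the vehicle, so their direction here is not independent evidence. All 10 were negative, with a median of -0.45, and their medians within replicates were -0.76, -0.29 and -0.37. At an unadjusted p under 0.05, 6 were lower in the unpaired fit, beside 1.21% of all tested clusters, and 9 with the block, beside 2.71%. TPR, of the nuclear pore basket, had 7.27, 7.54 and 8.06 with P4 and 8.47, 7.65 and 8.48 with F. The F array of replicate 2 lay among the P4 arrays, and the difference was -0.57 (limma, SE 0.252, 95% interval -1.12 to -0.03). DYNC2H1, the heavy chain of the ciliary dynein-2 motor, had the most even differences, -0.47, -0.45 and -0.38 in replicates 1 to 3. Its mean difference was -0.43 (SE 0.158, 95% interval -0.78 to -0.09), while a dimmer cluster of the gene gave -0.26 (SE 0.227). PCM1, a scaffold of centriolar satellites, had P4 and F arrays that did not overlap, at -0.36 (SE 0.151, 95% interval -0.68 to -0.03). The differences of ESF1, RIF1, REV3L and CCDC91 were -0.53, -0.47, -0.39 and -0.35. In the study's RT-qPCR, P4 raised TPR and PCM1 and F alone changed neither, the opposite direction to the array differences here. RAD50 was not changed there by F alone. DYNC2H1 and RIF1 rose with F in the study's account of each gene, while a summary sentence there counts fewer genes changed by F.

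HMGN5, which binds nucleosomes and loosens chromatin, had the smallest block p of the 12 lower genes. Its log2 values were 4.99, 5.48 and 5.42 with P4, 5.83, 5.70 and 6.20 with F and 4.84, 5.46 and 5.25 with V. All P4 arrays lay below all F arrays. The difference was -0.61 (limma, SE 0.193, 95% interval -1.03 to -0.19, and SE 0.138 with the block). Without P4 replicate 1 it was -0.46 and without F replicate 3 -0.47, inside the fold of 1.5. ATRX, a chromatin remodeler, had -0.58 (limma, SE 0.286, 95% interval -1.20 to 0.04) and the other 29 of the 31 HMG and remodeling genes also stayed inside the threshold in both fits, with a list median of -0.05. EIF5B, which joins the ribosomal subunits at the start of translation, had 6.92, 7.63 and 7.95 with P4 and 8.09, 7.93 and 8.43 with F. P4 replicate 3 overlapped F replicate 2, and EIF5B passed with the block only, at -0.65 (limma, SE 0.305, 95% interval -1.31 to 0.01, and SE 0.221 with the block). Without P4 replicate 1 it was -0.36. The median of the 35 initiation factors was -0.02 and that of 59 cytosolic ribosomal proteins 0.00.

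The remaining clusters that were lower carry several gene symbols and are not named as a gene. A cluster with 7 symbols of a multicopy family was lower in both fits at -0.69 (limma, SE 0.211, 95% interval -1.15 to -0.24). A pair of clusters with equal values, each annotated to SMIM10L2B-AS1 and ZNF75D, passed with the block only at -0.64 (limma, SE 0.302). The lower calls leaned on 2 arrays. Without P4 replicate 1, 0 of the 7 clusters of the unpaired fit passed (limma), and without F replicate 3, 1 did. The counts of clusters lower with P4 were then 11 and 4, so the 11 called without P4 replicate 1 were other clusters than the 7 called with all 12 arrays.

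**Figure D2:**
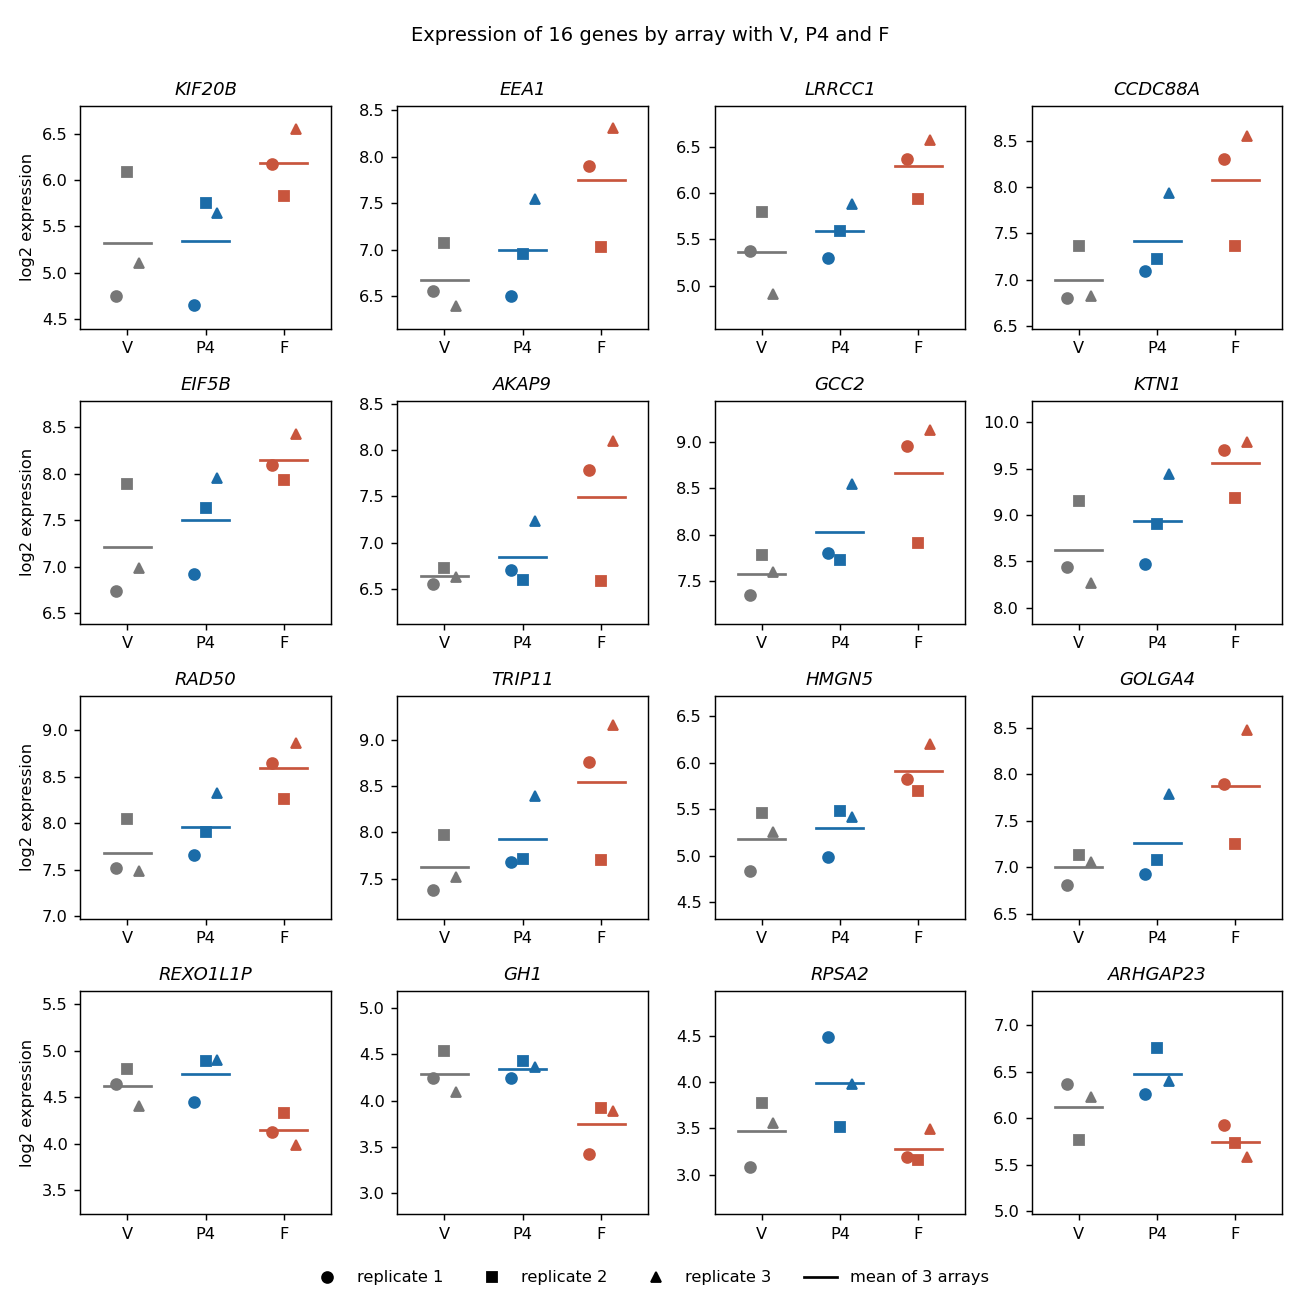
Log2 expression of the 16 single genes past the threshold in at least 1 fit, with a point for each array with V, P4 or F (3 each), marked by replicate number, and a line at the mean. In the 12 genes that were lower with P4, the F arrays of replicates 1 and 3 lie highest and the replicate 2 arrays of P4 and F lie close together, while in the last 4 genes all P4 arrays lie above all F arrays.

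Promoter sequences are shown for 3 of the genes that were lower and for ARHGAP23, the gene with the largest positive difference, because the study looked for CREB and CEBP sites in promoters of genes it had selected. They are the 250 bases before the start given by the RefSeq promoter table on GRCh38.p14, which for ARHGAP23 lies inside the gene's annotated span, all on the plus strand, at chr2:108448956-108449205 for GCC2, chr10:89701340-89701589 for KIF20B, chr5:132556727-132556976 for RAD50 and chr17:38428214-38428463 for ARHGAP23. Capitals mark CCAAT, the box after which the CEBP family is named, and TGACG, the core of the cAMP response element of CREB, on either strand.
GCC2: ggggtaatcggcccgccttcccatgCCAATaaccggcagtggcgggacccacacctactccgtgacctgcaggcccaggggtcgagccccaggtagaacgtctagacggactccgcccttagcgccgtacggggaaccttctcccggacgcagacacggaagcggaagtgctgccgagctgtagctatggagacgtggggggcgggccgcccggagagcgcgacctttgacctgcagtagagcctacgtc
KIF20B: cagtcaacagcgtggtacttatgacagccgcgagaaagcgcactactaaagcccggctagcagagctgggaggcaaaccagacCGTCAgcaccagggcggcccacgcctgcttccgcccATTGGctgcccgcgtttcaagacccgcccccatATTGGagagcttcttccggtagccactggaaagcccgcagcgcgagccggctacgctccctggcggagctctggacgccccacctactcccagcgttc
RAD50: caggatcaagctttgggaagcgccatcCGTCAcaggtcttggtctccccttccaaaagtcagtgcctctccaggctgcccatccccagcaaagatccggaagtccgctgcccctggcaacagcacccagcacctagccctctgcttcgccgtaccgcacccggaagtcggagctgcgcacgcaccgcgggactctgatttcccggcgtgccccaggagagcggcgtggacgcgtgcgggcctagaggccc
ARHGAP23: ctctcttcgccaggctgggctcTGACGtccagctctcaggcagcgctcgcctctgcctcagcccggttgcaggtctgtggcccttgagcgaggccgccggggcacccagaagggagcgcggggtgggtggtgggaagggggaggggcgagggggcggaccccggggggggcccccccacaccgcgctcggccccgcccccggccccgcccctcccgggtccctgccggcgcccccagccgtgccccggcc

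Of the 12 lower genes 10 had a promoter in the table, and LRRCC1 and GOLGA4 had none. TGACG, searched on both strands, lay in the promoters of KIF20B, CCDC88A, RAD50 and AKAP9, 4 of 10, and in 21.2% of the 35116 promoters searched. CCAAT lay in those of KIF20B, EEA1, GCC2 and CCDC88A, 4 of 10, beside 32.0% of all. The full element TGACGTCA, which contains TGACG, was in 0 of the 10 and 1.65% of all. The palindromic element bound by progesterone, androgen and glucocorticoid receptors was in 0 of 10 and 0.327% of all, and TGTTCT, one side of that element, was in the promoter of AKAP9 and in 12.4% of all. Among the higher genes, ARHGAP23 held TGACG and RPSA2 held CCAAT. The G and C content of the 10 promoters ran from 54.0% to 77.2% with a median of 67.0%, against 58.0% over all promoters. In the genome the 12 genes span 38.8 to 170 kb with a median of 88.8 kb, against 24.5 kb over 18390 genes with a RefSeq span. These are descriptions of letters and lengths, and a match is no measure of binding. The study predicted its sites with matrix scores from several programs, so the letter matches here are not counts of CEBP or CREB sites.

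On the other side, 4 single genes were higher with P4, in both fits, and in all 4 every P4 array lay above every F array, as in 4.75% of tested clusters. ARHGAP23, a GTPase-activating protein, had log2 values of 6.26, 6.76 and 6.40 with P4, 5.93, 5.73 and 5.58 with F and 6.37, 5.77 and 6.23 with V. V replicate 2 lay among the F arrays, and the other V arrays lay with the lower P4 arrays. The difference was 0.73 (limma, SE 0.162, 95% interval 0.38 to 1.08, and SE 0.163 with the block), a 1.65-fold higher level with P4. It was 0.58 without P4 replicate 2, just inside the fold of 1.5. The array holds a second, brighter cluster of ARHGAP23, and that one gave -0.10 (limma, SE 0.11), so the clusters of the gene disagree.

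The other 3 genes belong to families of near-identical copies, and their values are uncertain where copies share probes. All 3 were also dim, with mean log2 levels over the arrays of 3.60 (RPSA2), 4.18 (GH1) and 4.52 (REXO1L1P). The median level over all genes measured was 6.38, and without detection calls it is not known whether these 3 are expressed. RPSA2, a copy of the ribosomal protein and laminin receptor RPSA, had 4.48, 3.52 and 3.98 with P4 and 3.19, 3.16 and 3.49 with F. The highest array, P4 replicate 1, carried much of the difference of 0.72 (limma, SE 0.238, 95% interval 0.20 to 1.23), and without it 0.47 was not past the threshold. GH1, growth hormone, had 4.24, 4.43 and 4.36 with P4, 3.43, 3.92 and 3.89 with F and 4.24, 4.53 and 4.09 with V. The P4 arrays were level with V and the F arrays below both. Its difference was 0.59 (limma, SE 0.166, 95% interval 0.23 to 0.95, and SE 0.122 with the block), and it fell inside the fold of 1.5 without P4 replicate 2 (0.55), P4 replicate 3 (0.58) or F replicate 1 (0.44). REXO1L1P, a pseudogene of an RNA exonuclease, had 4.45, 4.89 and 4.90 with P4 and 4.13, 4.33 and 3.99 with F, a difference of 0.59 (limma, SE 0.152, 95% interval 0.26 to 0.92). It fell inside the fold without P4 replicate 2 (0.52), P4 replicate 3 (0.51), F replicate 1 (0.58) or F replicate 3 (0.51), and its 5 other clusters, which hold equal values, gave 0.37. PLPPR1, a neuronal phospholipid phosphatase-related protein, also had groups that did not overlap, at 4.06, 4.36 and 4.39 with P4 and 3.68, 3.49 and 3.95 with F, but stayed inside the fold at 0.56 (limma, SE 0.204, 95% interval 0.12 to 1.01). In the growth hormone family and its receptors GH1 was the only gene of 15 past the threshold, which 0.0189% of all tested clusters passed as higher. JAK2, the kinase of these receptors, had -0.22 (SE 0.0982, 95% interval -0.43 to -0.0086).

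**Figure D3:**
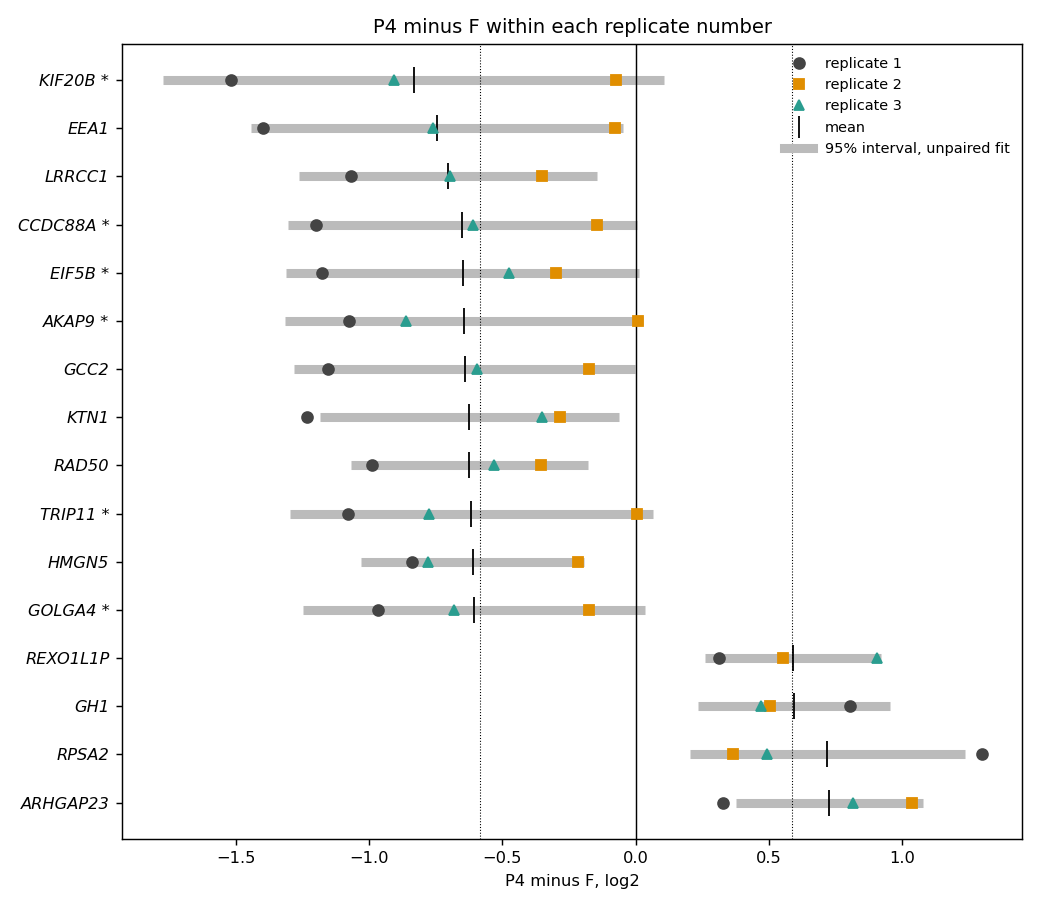
P4 minus F on the log2 scale within replicates 1, 2 and 3 (points), their mean (black tick) and limma's 95% interval of the unpaired fit (grey bar) for the 16 single genes, where an asterisk marks the 6 genes past the threshold with the block only and dotted lines a fold of 1.5. In the 12 lower genes the replicate 1 difference is the farthest from 0 and the replicate 2 difference the nearest, whereas the 4 higher genes have no such order.

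None of the measured genes through which progesterone or finasteride are known to act passed the threshold. Of 11 genes in the list of progesterone receptors and the PGRMC family, 9 were measured, and PGRMC1 was not among them. PGR ran from 3.98 to 4.02 on the 3 P4 arrays and had 3.89, 4.15 and 3.81 with F. The F arrays lay on both sides of the P4 arrays, and the difference was 0.05 (limma, 95% interval -0.16 to 0.27). The differences of the membrane receptors were -0.07 (PAQR5), -0.04 (PAQR6), 0.04 (PAQR7), -0.01 (PAQR8) and -0.02 (PAQR9). PGRMC2 (-0.06), NENF (-0.07) and CYB5D2 (0.10) were listed as members of the PGRMC family, which does not make each of them a receptor. Over the 9 genes measured the range was -0.07 to 0.10. For none of these 9 was the unadjusted p under 0.05 in either fit. Among the 8 other steroid receptors the glucocorticoid receptor NR3C1 had -0.07 (SE 0.108), and the mineralocorticoid receptor NR3C2 had the difference farthest from 0, -0.27 (limma, SE 0.138, 95% interval -0.57 to 0.03, and SE 0.1 with the block).

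SRD5A1, the 5α-reductase with the wider tissue range, had 7.96, 7.85 and 7.87 with P4, 7.66, 8.03 and 7.93 with F and 7.95, 7.75 and 8.02 with V. The groups overlapped, and the interval of the difference of 0.02 ran from -0.21 to 0.24. SRD5A2, the isoenzyme of prostate and liver, had 3.93, 4.16 and 4.13 with P4. Of its F arrays, replicates 1 and 3 had 3.84 and 3.89 and replicate 2 lay among the P4 arrays, and the difference was 0.16 (limma, 95% interval -0.06 to 0.39). AKR1C2 (-0.15), AKR1C3 (-0.01) and AKR1C4 (-0.04) lay within 0.2 of 0, and 2 clusters of AKR1C1 disagreed in sign at -0.17 and 0.17. Of 35 steroid enzymes and transporters 0 passed the threshold (limma), and 2 had an unadjusted p under 0.05, both higher with P4, beside 1.66% of all tested clusters. They were HSD17B6, a hydroxysteroid dehydrogenase and epimerase, at 0.24 (SE 0.0968, 95% interval 0.03 to 0.45) and TSPO, the outer mitochondrial translocator protein, at 0.19 (SE 0.0882, 95% interval 0.004 to 0.39).

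Genes that steroids are known to switch on were also close to level between the treatments. The 30 progestin and glucocorticoid response genes had a median of 0.01 and a range of -0.16 to 0.19, with 0 under an unadjusted p of 0.05 in the unpaired fit of limma and 1 with the block, the prolactin receptor PRLR (0.19, SE 0.103). The 15 androgen response genes had a median of 0.04, and KLK4, a kallikrein protease, was higher with P4 on all arrays at 0.20 (limma, SE 0.0874, 95% interval 0.0091 to 0.39). The 15 genes of the pregnane X receptor had a median of 0.00, the 15 GABA-A receptor subunits 0.04 and the 27 CREB, CEBP and cAMP response genes 0.01. In the last of these JUNB, an immediate early transcription factor, was higher with P4 at 0.22 (limma, SE 0.0828, 95% interval 0.04 to 0.39), and PDE4D, a phosphodiesterase that breaks down cAMP, was lower at -0.23 (SE 0.0861, 95% interval -0.42 to -0.04). Both had P4 and F arrays that did not overlap, and both were inside the fold of 1.5.

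The lists of other cell functions had medians near 0. Intraflagellar transport (38 genes) had -0.02, the nuclear pore (37) -0.03, ribosome biogenesis (43) -0.03, cholesterol synthesis (22) -0.01, glycolysis and hypoxia (28) -0.02, the unfolded protein response (27) -0.01, interferon-stimulated genes (29) -0.04, extracellular matrix (36) 0.01, the respiratory chain (45) 0.01, steroid receptor chaperones and coregulators (12) 0.01 and vault RNAs and proteins (5) 0.08. In these 11 lists 0 genes passed the threshold in either limma fit, and at an unadjusted p under 0.05 the unpaired fit held 1 gene higher and 3 lower with P4, beside 1.66% and 1.21% of all tested clusters. The 1 higher gene was IFT43, of the intraflagellar transport A complex, at 0.19 (SE 0.0825, 95% interval 0.01 to 0.37). In the nuclear pore list 30 of 37 genes were negative, TPR among them, beside 48.6% of all tested clusters. The sign of a list's median was often not shared by the replicates: ribosome biogenesis had medians of 0.08, -0.16 and -0.04 in replicates 1, 2 and 3, and the nuclear pore 0.08, -0.11 and -0.07.

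**Figure D4:**
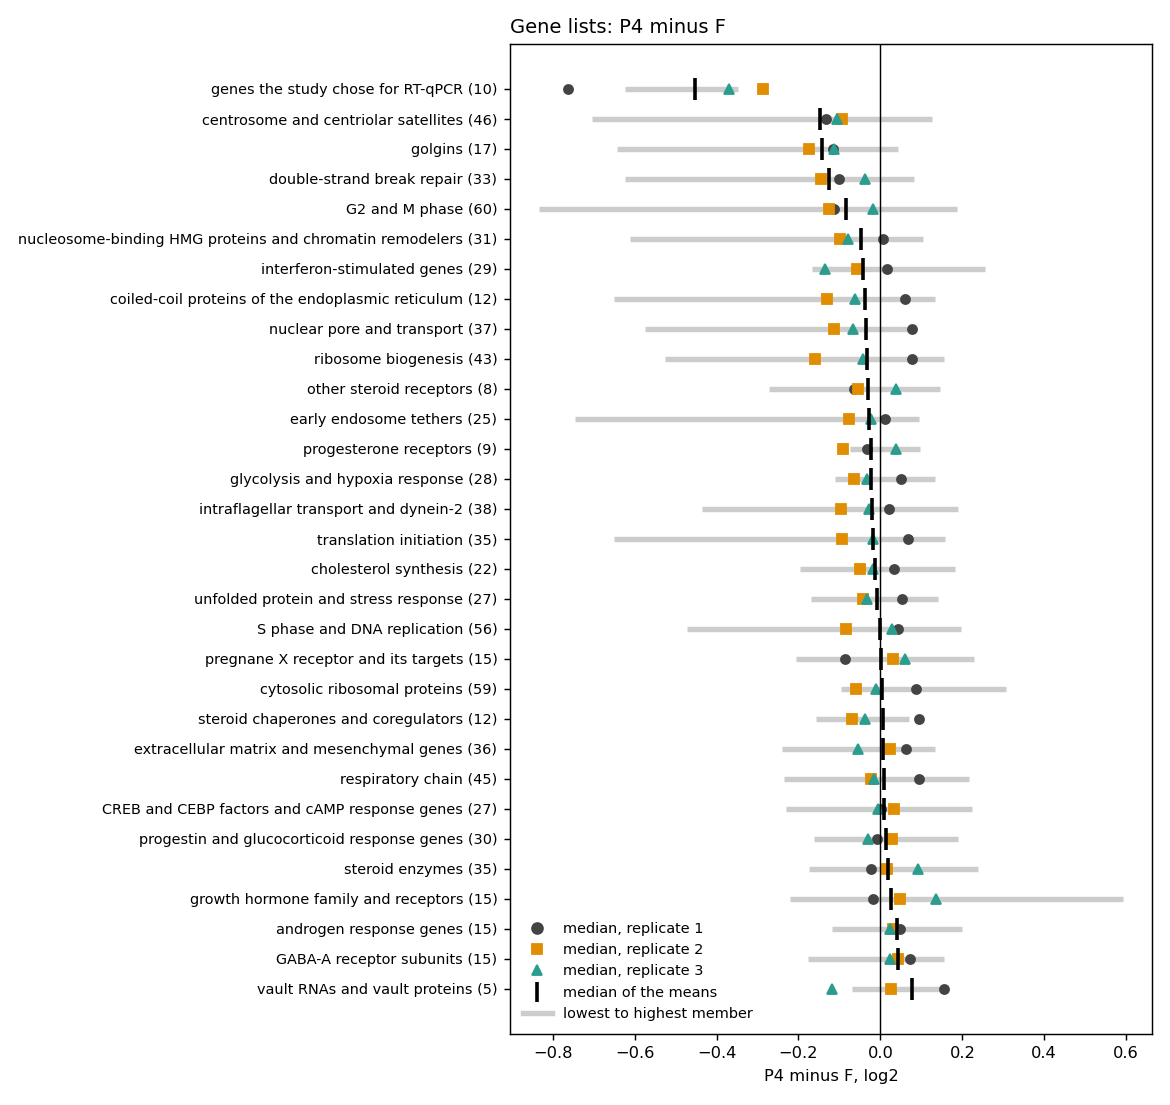
P4 minus F on the log2 scale for the gene lists, with the number of genes measured in parentheses, the range of the members (grey), the median of their mean differences (black tick) and the medians within replicates 1, 2 and 3 (points). The 10 genes chosen by the study lie farthest to the left at -0.45, the centrosome, golgin and double-strand break lists follow between -0.15 and -0.12, and the other medians lie between -0.08 and 0.08.

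The labelled cell type was checked on markers. Vimentin (VIM) had 12.5 with both P4 and F, CD44 11.9 and fibronectin (FN1) 13.2, while nestin (NES) had 6.02 with P4 and 5.98 with F. The lists of other cell types held bright and dim members alike. Among astrocyte markers the connexin GJA1 had 11.02 with P4, the glutamate transporter SLC1A3 9.53 with P4 and 9.51 with F, GFAP 6.16 and 6.19 and the water channel AQP4 2.98 and 2.90. The macrophage marker CD68 had 10.8 and 10.9 and the leukocyte marker PTPRC 2.91 and 2.95. The keratins KRT8 and KRT18 had 7.46 and 7.33 with P4, and the epithelial marker EPCAM had 3.54. SNAP25, of neurons, had 8.63. These lists did not single out the labelled cell type. The table gives no detection calls, so a low value cannot be read as absence. The mean level of the 9 glioblastoma and mesenchymal markers ran from 10.7 to 10.9 on the P4 arrays and from 10.7 to 10.8 on the F arrays. Of the markers of other cell types, SYT1, of synaptic vesicles, was lower with P4 at -0.26 (limma, SE 0.119, 95% interval -0.52 to -0.0016) and OLIG1, of the oligodendrocyte lineage, higher at 0.27 (SE 0.104, 95% interval 0.04 to 0.50), and 0 passed the threshold. The mean of the 5 neuron markers ran from 5.60 to 5.79 with P4 and from 5.75 to 5.83 with F. That of the 6 oligodendrocyte markers ran from 5.36 to 5.52 with P4 and from 5.28 to 5.41 with F. Both pairs of ranges overlap.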

How the data were processed

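Total RNA was measured on 12 arrays, 3 each with V, 3α-THP, P4 and F. The deposited table holds log2 values, 1 per array and cluster, which the authors obtained with Affymetrix Expression Console 1.4 according to the submitters' processing notes. The methods of the study name quantile normalization, and the table names none. The values ran from 1.25 to 14.1, the array medians of tested clusters from 6.35 to 6.40, and no value was missing. The precision is set by 3 arrays per treatment, since an array gives no read depth: the median SE was 0.109, which makes a 95% interval of 0.237 on either side. The vehicle is 0.1% DMSO in the study and the sample characteristics and 10% in the treatment protocol, and the arrays do not settle it.

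Of the tested clusters 19461 carry 1 gene and 1753 several, and 703 have values equal to another's, so counts include copies. The 12083 clusters without a symbol were fitted separately. Limma 3.58.1 in R 4.3.3 (lmFit and eBayes) fitted 4 treatment means on all 12 arrays, with the contrast P4 minus F, and adjusted p-values by Benjamini-Hochberg over 21214 clusters. The same fit with the replicate number as a block stands beside it. Deviations from the treatment means correlated at 0.132 to 0.631 in all 18 pairs of arrays with the same number, against a median of -0.245 in 36 pairs with different numbers. Deviations from a mean of 3 arrays sum to 0, so positive values for equal numbers go with negative ones for different numbers. Between P4 and F, arrays of the same number correlated at 0.132, 0.505 and 0.342 in replicates 1 to 3. P4 replicate 1 correlated at 0.127 with F replicate 3, so replicate 1 was hardly matched by its number. The numbers are the only pairing in the titles and were used as the block. In simulated data the unpaired fit called 83% of genes shifted by 0.7 and 99% shifted by 1, and 0.262% of those not shifted. The simulated arrays had independent noise and no replicate effect, unlike the arrays here. With the real values 0.0519% of clusters passed, so the simulated rates do not carry over to these data.

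Genes named are those past the threshold in either fit, the 5 largest differences in each direction with arrays that do not overlap and replicates of the same sign, the 10 genes taken to RT-qPCR (some are not reported here), and from each gene list up to 4 members with the smallest p under 0.05 in either fit (for steroid receptors and enzymes also the brightest members and those the study introduces). Each gene entered a list with its brightest cluster. The members of the comparison and the gene lists were chosen with earlier results of these data known. Gene names came from the platform annotation and promoters from RefSeq. Alternatives changed the block, the arrays, the test, the normalization, the clusters, the variance prior, the weights and the fold, and left out each array in turn. Leaving out the arrays of numbers 1 and 3, and any number under the block, was chosen after seeing the data.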

Additional observations from a re-analysis of the deposited data

Results flagged for a closer look

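Among the 12083 transcript clusters without a gene symbol, which the comparisons above do not use, 147 passed the threshold (81 higher and 66 lower with P4). Among the 21214 clusters with a symbol 11 passed (0.0519%), so clusters without a symbol passed far more often. The level and the kind of these clusters were not compared, and the cause of this difference was not tested. Of the 147, 1 passed at an adjusted p over the clusters without a symbol, cluster 7895800, at -1.59 (limma, SE 0.15, adjusted p = 0.0063). Its log2 values were 3.41, 3.29 and 3.17 with P4, 4.78, 5.03 and 4.83 with F, 3.91, 4.41 and 4.28 with V and 3.80, 3.60 and 3.37 with 3α-THP. It was noted because it lies outside the tested clusters and its F arrays are all above the V arrays. Its P4 arrays and its 3α-THP arrays all lay below the V arrays. What the cluster measures is not given in the sources used here.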

How the results depend on the processing

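The counts past the threshold are given as total, higher and lower with P4, where those of the unpaired fit are 11, 4 and 7. The replicate block and the random replicate block each gave 19, 4 and 15. The P4 and F arrays alone gave 15, 4 and 11, and 23, 4 and 19 with the replicate block. The methods' analysis of variance gave 5, 3 and 2 and an unmoderated pooled variance 7, 4 and 3. Quantile and cyclic loess normalization each gave 10, 2 and 8, of which 8 were among the 11. Leaving out clusters with a mean below 6 gave 4, 1 and 3, and 1 cluster per gene 8, 2 and 6. Array weights gave 28, 4 and 24, a fold of 1.3 gave 90, 32 and 58, and a fold of 2 gave 0, 0 and 0. Without the arrays of number 2 the counts were 52, 4 and 48, without number 1 they were 36, 21 and 15, and without number 3 they were 31, 11 and 20. With the replicate block these were 57, 5 and 52 without number 2, 37, 22 and 15 without number 1, and 51, 13 and 38 without number 3. Leaving out 1 array at a time, the total ran from 11 to 66, the higher from 3 to 8 and the lower from 4 to 61. The highest totals came without F replicate 2 (66) and P4 replicate 3 (57), and without P4 replicate 1 the total was 19. The causes of these shifts were not tested. No setting changed the sign of a named gene past the threshold in either fit, while genes inside it, SRD5A1, PAQR7 and PAQR5 among them, changed sign when arrays were left out. The adjusted p passed for 0 clusters in every setting, all of limma apart from the analysis of variance. Of the list medians and counts, 227 moved and 2503 did not. GH1, RPSA2, REXO1L1P, LRRCC1, KIF20B and HMGN5 have means below 6 and are not tested when dim clusters are left out.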
